A study of Homo sapiens with 12 samples.

Results

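BIRC3 and 9 genes that sit around it in NF-kappaB signalling were followed in cancer cells with evolved resistance to hydroxychloroquine (HCQ), a drug that accumulates in lysosomes and blocks autophagy. The 10 genes were BIRC3, BIRC2, XIAP, NFKBIA, TNFAIP3, TNFAIP2, NFKB1, NFKB2, RELB and TRAF1. They were found by symbol in a table of 28278 genes, and all 10 passed the filter on low counts in both lines, where 12204 genes (OVCAR3) and 12241 genes (CCL218) could be tested. BIRC3 was picked by its rise in both lines. Its values in those comparisons are therefore a description and carry no test, while the other 9 genes were read from the fit over all genes.

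PolyA RNA was sequenced from 12 libraries in 4 groups of 3. The labels call OVCAR3 cells ovarian cancer and CCL218 cells colorectal cancer. The HCQ-evolved groups of both lines had received 15 HCQ pulses of 48 h, each followed by recovery in fresh medium, and then 7 days without drug, and carry the passage label P15. The control groups were passaged without HCQ and carry the label P19, so treatment and passage label cannot be told apart. Each library was a pool of wells from 1 of 3 parts of a 96-well plate, named L, M or R by its position, and the 3 pools of a group came from 1 plate, so that p-values measure the spread between pools of a plate and not between repeated evolution experiments. In pools of many wells, more cells with a transcript and more transcript per cell cannot be told apart.

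NF-kappaB is a family of dimeric transcription factors that wait in the cytoplasm, held by inhibitor proteins of the IkappaB type. Signals from receptors such as the TNF receptors lead to ubiquitin chains on adaptor proteins, to activation of the IKK kinases and to destruction of the inhibitor. The freed factor enters the nucleus and switches on inflammatory and survival genes, among them its own inhibitors, which makes the pathway a self-limiting loop. BIRC3 and BIRC2 encode the ubiquitin ligases cIAP2 and cIAP1, which act at the receptor complex and also keep the kinase NIK, and with it the noncanonical branch through NFKB2 and RELB, in check. BIRC3 is itself a textbook NF-kappaB target, as are NFKBIA, TNFAIP3, TNFAIP2, NFKB2, RELB and TRAF1.

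The members differed in whether the DNA just before their start holds the kappaB consensus, a decamer bound by NF-kappaB dimers. RefSeq promoter windows of 300 bases, from 250 before to 50 after an annotated start (GRCh38.p14), were searched on both strands for this decamer by its standard consensus. Of 35116 windows, 11.3% held at least 1 match, and of 27305 gene symbols 13.3% had at least 1 window with a match. Entries were found for 9 of the 10 members, and 5 of these 9 had a match (BIRC3, NFKBIA, TNFAIP3, NFKB1 and NFKB2). No window of BIRC2 (2 windows), XIAP (3 windows), TNFAIP2 (1 window) or TRAF1 (3 windows) held these letters, which says nothing about other sequences the factor may bind. RELB had no entry.

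The stretches that hold the matches are shown because they set BIRC3 beside the feedback genes that share this element and beside its neighbour BIRC2, which has none in the same interval. Capitals mark bases inside a match on either strand, and every stretch reads 5′ to 3′ on the strand of the gene. BIRC3 (chr11:102317269-102317373, plus strand) held 2 separate matches, both on the opposite strand, that begin at positions -199 and -135 counted from its start. NFKBIA (chr14:35404801-35404860, minus strand) held 1, TNFAIP3 (chr6:137867164-137867213, plus strand) held 2, and NFKB1 (chr4:102501280-102501329, plus strand) held 1. For NFKB2 the 30 bases around a pair of overlapping matches before its second listed start are given (chr10:102394461-102394490, plus strand). The BIRC2 stretch (chr11:102346999-102347103, plus strand) covers the same distances from its start as that of BIRC3.
BIRC3: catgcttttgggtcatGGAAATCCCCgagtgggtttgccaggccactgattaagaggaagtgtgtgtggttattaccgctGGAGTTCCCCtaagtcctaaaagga
NFKBIA: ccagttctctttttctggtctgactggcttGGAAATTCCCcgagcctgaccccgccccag
TNFAIP3: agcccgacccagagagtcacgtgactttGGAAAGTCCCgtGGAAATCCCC
NFKB1: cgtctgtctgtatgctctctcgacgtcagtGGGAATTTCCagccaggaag
NFKB2: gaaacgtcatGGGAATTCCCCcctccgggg
BIRC2: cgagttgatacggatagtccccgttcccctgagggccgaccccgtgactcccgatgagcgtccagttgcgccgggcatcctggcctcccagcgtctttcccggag

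Libraries held 31147822 to 59965861 counts each. Of the counts between 1 and 4, 78.9% were even, so counts may not each stand for a separate molecule, and whether both mates of a fragment were counted was not tested. Some libraries stood apart. In OVCAR3, control M and HCQ-evolved R rose with transcript length relative to the other libraries (rho across genes 0.54 and 0.57, against -0.45 to -0.37 in the other 4), and the genes called in this line went from 227 to 557 without HCQ-evolved R and to 19 without control M. The CCL218 libraries also had such trends. There rho was -0.51, 0.47 and 0.04 in control L, M and R, and -0.22, 0.3 and 0.47 in HCQ-evolved L, M and R. Leaving out CCL218 control L, which had the most negative rho of the 12 libraries, took the genes called in this line from 791 to 3047. The labelled tissues were checked against their markers. The OVCAR3 libraries held colorectal markers. In control, LGALS4 stood at a mean of 716 CPM (counts per 1e+06 counts of the library), VIL1 at 237 CPM and CDX2 at 10.7 CPM. Others were low there, with CDH17 at 3.29 CPM, GPA33 at 3.05 CPM, CDX1 at 0.29 CPM and KRT20 at 0 CPM. In CCL218 control CDH17 and GPA33 stood at 3.84 and 4.76 CPM. In OVCAR3 control 9 of 10 listed markers lay above the floor of 3 counts. Summed colorectal markers ranged from 975 to 1192 CPM in OVCAR3 control and from 266 to 769 CPM in OVCAR3 HCQ-evolved libraries, against 1151 to 1676 and 1270 to 1343 CPM in CCL218. Of the 8 ovarian markers, 5 lay above the floor in OVCAR3 control and 4 in CCL218 control, with summed levels of 69.2 to 85.7 and 65.9 to 90.8 CPM. PAX8, MECOM and MUC16 were present in both lines, while SOX17 was at 0 CPM in every group and WT1 reached a mean of 0.29 CPM in OVCAR3 control. The ovarian markers thus did not set the control groups of the 2 lines apart, and the name OVCAR3 stands below for the libraries labelled so. Blood cell markers summed to 5.07 to 24.4 CPM, with PTPRC at or below a mean of 0.04 CPM in all groups.

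BIRC3 was among the scarcest members without HCQ and stood higher in every evolved library. It lies on chr11:102317484-102339403, plus strand (hg38). In OVCAR3 control pools L, M and R it stood at 1.78, 3.03 and 2.89 CPM, and in the HCQ-evolved pools at 6.52, 6.80 and 8.13 CPM. In CCL218 the control pools gave 2.26, 2.80 and 2.23 CPM and the HCQ-evolved pools 7.32, 7.44 and 9.59 CPM. Every evolved library lay above every control library of either line. The log2 fold change was 1.46 (SE 0.28, 2.75-fold) in OVCAR3 and 1.72 (SE 0.19, 3.28-fold) in CCL218. Ordered from the largest rise down, BIRC3 was number 93 of 12204 genes in OVCAR3 and number 87 of 12241 in CCL218. These levels rest on 72 to 156 counts in control and 348 to 566 in evolved libraries. In both lines the highest evolved library was R, which in OVCAR3 was also the evolved library that rose with transcript length (rho 0.57) and in CCL218 the one that rose most with it (rho 0.47). With each library's trend with length and GC content removed, the log2 fold change was 1.26 in OVCAR3 and 1.5 in CCL218.

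**Figure D1:**
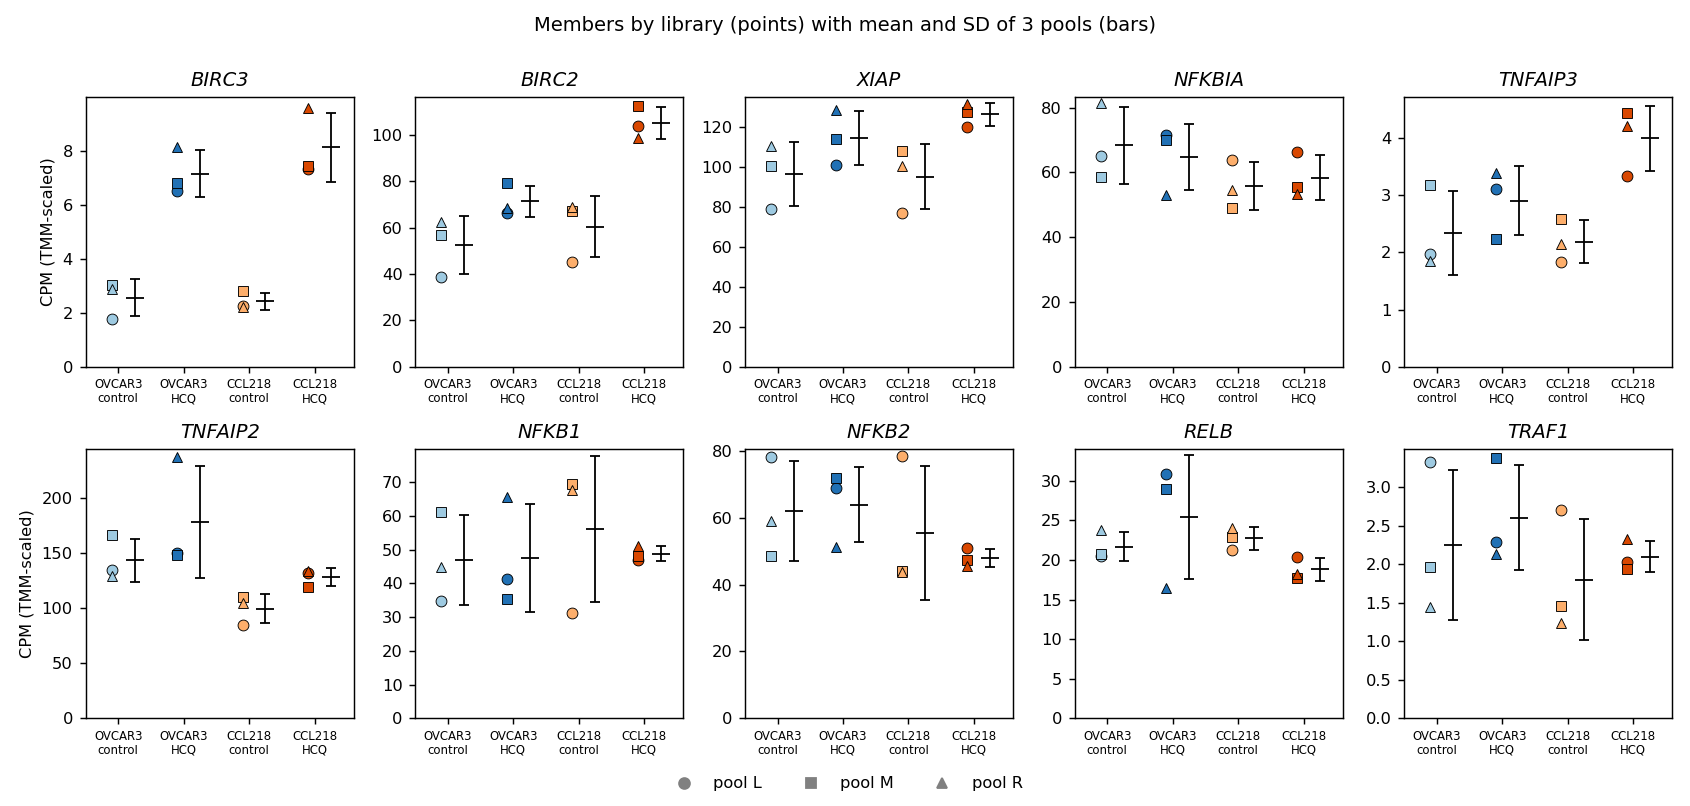
CPM (TMM-scaled, linear axis from 0) of each member in the 12 libraries, 1 panel per gene, with points for pools L, M and R and bars for the mean and SD of the 3 pools of a group. BIRC3 is higher in all evolved pools of both lines, BIRC2 is higher in all evolved pools of its own line, and the pools of NFKBIA, NFKB1, NFKB2 and TRAF1 overlap between control and HCQ-evolved.

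CPM per kilobase of exon (CPM per kb) sets levels side by side between genes and divides by all annotated exon bases of a gene. This length far exceeds that of the canonical transcript for NFKB1 (15679 against 4055 bases), NFKBIA (3394 against 1559) and NFKB2 (5583 against 3015). For TNFAIP2 the 2 lengths are close (5058 against 4683). Orders that involve these genes thus depend on the length used. On this scale BIRC3 was the lowest of the 10 members in both control groups, at 0.34 ± 0.09 CPM per kb in OVCAR3 and 0.32 ± 0.04 in CCL218 (mean ± SD, n = 3). TNFAIP3 (0.36 ± 0.11 and 0.34 ± 0.06) and TRAF1 (0.50 ± 0.22 and 0.40 ± 0.18) were so close to it that these 3 did not differ beyond their spread. After HCQ evolution BIRC3 reached 0.96 ± 0.12 and 1.08 ± 0.17 CPM per kb and stood eighth of 10, above TNFAIP3 and TRAF1 but still below NFKB1, the next member up, at 3.03 ± 1.02 and 3.11 ± 0.14. By annotated exon length TNFAIP2 was first in every group, at 19.7 to 35.2 CPM per kb. NFKBIA, BIRC2, XIAP, NFKB2 and RELB lay between 6.28 and 23.3. BIRC2, NFKB2 and XIAP were neighbours in the controls and did not differ beyond their spread in OVCAR3 (11.6 ± 2.75, 11.1 ± 2.68 and 10.1 ± 1.69).

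BIRC2, the closest relative of BIRC3, was the only other member called in an HCQ comparison by the main test. It lies 7807 bases downstream on the same strand of chromosome 11. In CCL218 its control pools stood at 45.3, 67.3 and 68.9 CPM and its evolved pools at 104, 113 and 98.9 CPM, with no overlap. The log2 fold change was 0.78 (SE 0.17, 1.71-fold) and the adjusted p 0.0462 by edgeR's quasi-likelihood test. In OVCAR3 the control pools stood at 38.6, 56.7 and 62.5 CPM and the evolved pools at 66.4, 79.1 and 68.5 CPM, again without overlap, but the change of 0.42 (SE 0.22) was not called (adjusted p 0.404). The call in CCL218 was close to the threshold and was lost without control M, control R or any of the 3 evolved pools (highest adjusted p 0.227), while it held without control L. Control L was the lowest control pool of BIRC2 in both lines.

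BIRC3 remained the minor partner of the pair. Per kilobase it amounted to 2.77%, 3.22% and 2.79% of BIRC2 in the OVCAR3 control pools and to 5.92%, 5.19% and 7.16% in the evolved pools. In CCL218 the same ratio was 3.02%, 2.51% and 1.95% in control and 4.25%, 3.99% and 5.85% in evolved pools. The ratio was higher in all evolved pools than in the control pools of the same line, and since BIRC3 was chosen for its rise this is a description. Whether reads that map to both genes were split or dropped in counting is not given in the sources used here.

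XIAP, the relative that binds and blocks caspases directly, was abundant and was not called in either line. Its CCL218 pools went from 76.8, 108 and 101 CPM to 120, 128 and 131 CPM, without overlap, a log2 fold change of 0.39 (SE 0.15) that was not called (adjusted p 0.158). In OVCAR3 the pools went from 78.8, 100.2 and 110 CPM to 101, 114 and 128 CPM and overlapped (0.23, SE 0.20, adjusted p 0.627).

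Among the inhibitors of the pathway, NFKBIA was not called in either line. It encodes IkappaB alpha, the inhibitor that NF-kappaB resynthesises to end its own activity. It stood at 65.1, 58.4 and 81.6 CPM in OVCAR3 control and at 71.5, 69.9 and 53.0 CPM in the evolved pools, and at 63.9, 49.1 and 54.6 CPM against 66.3, 55.5 and 53.4 CPM in CCL218. The groups overlapped in both lines. The log2 fold changes were -0.10 (95% interval -0.51 to 0.30, adjusted p 0.860) and 0.036 (-0.28 to 0.35, adjusted p 0.902), so a change as large as that of BIRC3 lies outside both intervals.

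TNFAIP3 encodes A20, a ubiquitin-editing enzyme that shuts down signalling at the receptor complex. In CCL218 it stood at 1.83, 2.58 and 2.14 CPM in control and at 3.34, 4.43 and 4.2 CPM in evolved pools, without overlap, on 76 to 248 counts. The log2 fold change was 0.85 (SE 0.21, 1.80-fold), and the main test put it just short of a call (adjusted p 0.0595). With plate position as a block in the edgeR fit, the change was 0.85 (SE 0.22) and was called (adjusted p 0.0355). The block was read in CCL218 because same-position pools deviated together there, a choice made on the same data. In OVCAR3 the pools overlapped, from 1.97, 3.18 and 1.85 CPM to 3.10, 2.23 and 3.38 CPM (0.30, SE 0.32, adjusted p 0.694).

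TNFAIP2, a TNF-induced gene of membrane protrusions, was the most abundant member per kilobase of annotated exon. Its CCL218 pools went from 84.6, 109.6 and 104 CPM to 132, 119 and 133 CPM without overlap (0.34, SE 0.13, adjusted p 0.171). In OVCAR3 it went from 134, 166 and 129 CPM to 149.98, 148 and 237 CPM, with pool R well above the other evolved pools (0.30, SE 0.24, adjusted p 0.605). TRAF1, an adaptor that recruits the cIAP proteins to receptors, was scarce and scattered, from 1.24 to 3.38 CPM over all libraries and on 58 to 173 counts. Its changes were 0.19 in both lines, with SEs of 0.37 in OVCAR3 and 0.33 in CCL218 (adjusted p 0.857 and 0.739).

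No gene of the transcription factor itself was called in either line. NFKB1, which encodes the precursor of the p50 subunit, stood at 34.7, 61.3 and 44.9 CPM in OVCAR3 control and at 41.5, 35.3 and 65.5 CPM in evolved pools (log2 fold change -0.0014, SE 0.31, adjusted p 0.999). In CCL218 control it stood at 31.3, 69.4 and 67.6 CPM, with pool L far below the other pools, and at 46.9, 48.1 and 51.2 CPM in evolved pools (-0.22, SE 0.28, adjusted p 0.640). NFKB2, which encodes the precursor of p52 in the noncanonical branch, showed the opposite scatter, with control L highest in both lines (78.0 and 78.5 CPM against 43.8 to 59.1 in the other control pools). Its changes were 0.022 (SE 0.24, adjusted p 0.977) in OVCAR3 and -0.24 (SE 0.25, adjusted p 0.571) in CCL218. RELB, the partner of p52, stood at 21.2, 23.0 and 24.0 CPM in CCL218 control and at 20.4, 17.7 and 18.3 CPM in evolved pools, which lay apart and lower (-0.30, SE 0.13, adjusted p 0.193). In OVCAR3 its evolved pools were at 30.9, 28.9 and 16.5 CPM, on both sides of the control pools at 20.5, 20.7 and 23.8 CPM (0.20, SE 0.25, adjusted p 0.746).

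Counted over the 9 tested members, 0 were called in OVCAR3 by edgeR, where 1.86% of all genes were called. None of the 9 reached an unadjusted p under 0.05, which 1983 of 12204 genes did, and DESeq2 and limma also called 0. In 1 of the 9 (BIRC2) the pools lay apart, against 25.9% of all genes. In CCL218, 1 of 9 was called (BIRC2, higher), against 6.46% of all genes. An unadjusted p under 0.05 was found for 5 of 9, and for 3084 of the 12241 genes tested. The pools lay apart in 5 of 9, of which 4 were higher (BIRC2, XIAP, TNFAIP3 and TNFAIP2) and 1 was lower (RELB), against 36.1% of all genes. With the block, 2 of 9 were called (BIRC2 and TNFAIP3), where the block called 14.2% of all genes. The same 2 were called by DESeq2, which called 17.7% of all genes, and with the length and GC trend removed, which called 19.3%. Without control L, 4 of 9 were called (BIRC2 and TNFAIP3 higher, NFKB1 and RELB lower), against 25.2% of all genes, and without any other single library 0 were. The median log2 fold change of the 9 was 0.20 in OVCAR3 and 0.19 in CCL218, beside medians of 0.016 and -0.017 over all genes tested.

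**Figure D2:**
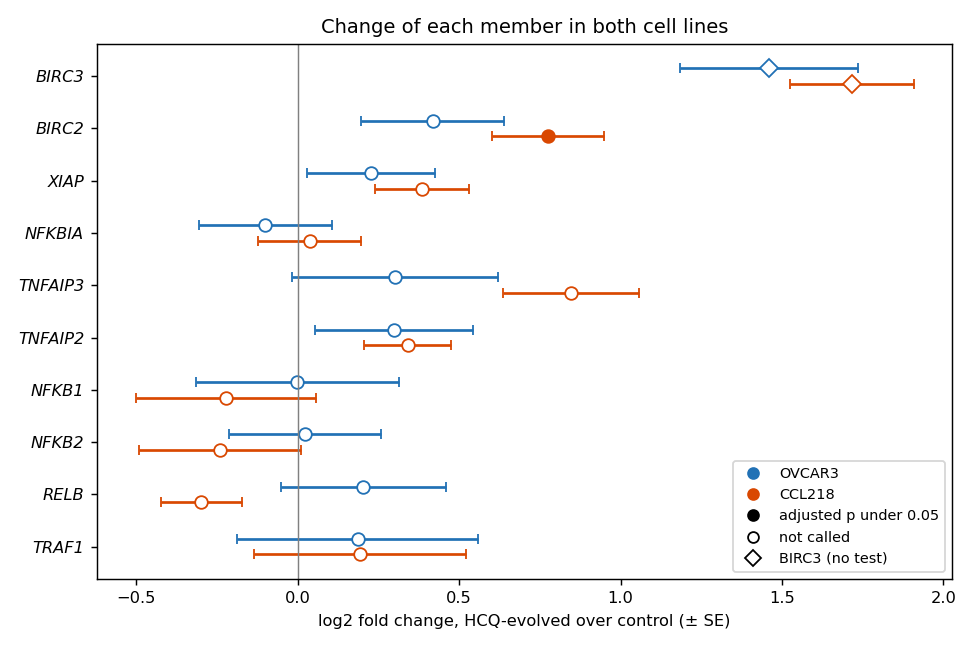
Log2 fold change of HCQ-evolved over control pools with its SE for each member, in OVCAR3 (blue) and CCL218 (orange). Filled points passed an adjusted p of 0.05, open points did not, and diamonds mark BIRC3, which was not tested. BIRC3 lies at 1.46 and 1.72, and among the other members only BIRC2 in CCL218, at 0.78, is filled.

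Whether a member changed differently in the 2 lines was tested in a fit of all 12 libraries. By edgeR 0 of the 9 members were called, where 0.872% of all genes were, and DESeq2 and limma called 0. None had an unadjusted p under 0.05, which 1149 of 12613 genes had. The largest differences, CCL218 minus OVCAR3, were 0.56 for TNFAIP3 (95% interval -0.16 to 1.29, adjusted p 0.830), -0.48 for RELB (-1.05 to 0.08, adjusted p 0.768) and 0.37 for BIRC2 (-0.17 to 0.91, adjusted p 0.896). These intervals still admit a sizeable difference toward CCL218 for TNFAIP3 and BIRC2 and toward OVCAR3 for RELB. For BIRC3 the difference was 0.27 (SE 0.31), given as a value.

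Without HCQ no member was called between the lines, and few of all genes were, so this is not particular to the members. Between CCL218 and OVCAR3 control pools 0 of the 10 members were called by edgeR, DESeq2 or limma, where 2.05% of all genes were called by edgeR. BIRC3 differed by -0.083 (SE 0.27, adjusted p 0.891) in this comparison, which was not used to choose it. TNFAIP2 was the 1 member with an unadjusted p under 0.05, which 1512 of 12324 genes had. It was also the only one of the 10 whose pools lay apart (17.6% of all genes did). By edgeR's main test it was lower in CCL218, with a log2 fold change of -0.53 (SE 0.18, adjusted p 0.252). With plate position as a block its change was -0.53 (SE 0.11) and was called (adjusted p 0.00147), where the block called 36% of all genes. The comparison shares its control pools with the HCQ comparisons.

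BIRC3 and BIRC2 lie in a cluster on chromosome 11 together with YAP1, TMEM123 and a row of matrix metalloprotease genes, so the genes within 1000000 bases of BIRC3 were examined. Of 20 such genes 8 were tested, and most metalloprotease genes were at 38 counts or fewer in every library. In OVCAR3 0 of the 8 were called by edgeR or limma, where edgeR called 1.86% of all genes. DESeq2 called 1 (MMP7), where it called 1105 of 12204 genes. An unadjusted p under 0.05 by edgeR was reached by 2 of the 8 and by 1983 of all genes. In CCL218 2 of the 8 were called, both higher, where 3.82% of all genes were called higher. They were BIRC2 and TMEM123, which encodes a cell surface receptor of cell death by membrane injury. TMEM123 went from 666 ± 159 to 1299 ± 107 CPM (log2 fold change 0.94, SE 0.19, adjusted p 0.0353). In OVCAR3 it went from 474 ± 116 to 786 ± 209 CPM (0.71, SE 0.28, adjusted p 0.259), with pools apart. The TMEM123 call, like that of BIRC2, was lost without any single CCL218 library other than control L (highest adjusted p 0.195).

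The genes beyond this pair are described after their values were seen. YAP1, the growth regulator of the Hippo pathway, changed by 0.63 (SE 0.29, adjusted p 0.227) in CCL218 and by 0.49 (SE 0.35, adjusted p 0.540) in OVCAR3, and with the block it was called in CCL218 (0.70, SE 0.19, adjusted p 0.0359). MMP7, a metalloprotease of epithelial cells, went from 31.1 ± 5.30 to 72.9 ± 30.9 CPM in OVCAR3 with pools apart (1.20, SE 0.32, adjusted p 0.114), and from 57.9 ± 3.08 to 71.7 ± 5.16 CPM in CCL218 (0.28, SE 0.12, adjusted p 0.203). CEP126, CFAP300, DCUN1D5 and DYNC2H1, at the outer ends of the interval, lay between -0.17 and 0.16 in both lines, with overlapping pools. BIRC3 had the largest log2 fold change of the 9 tested genes in both lines, as its choice for a rise would favour.

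**Figure D3:**
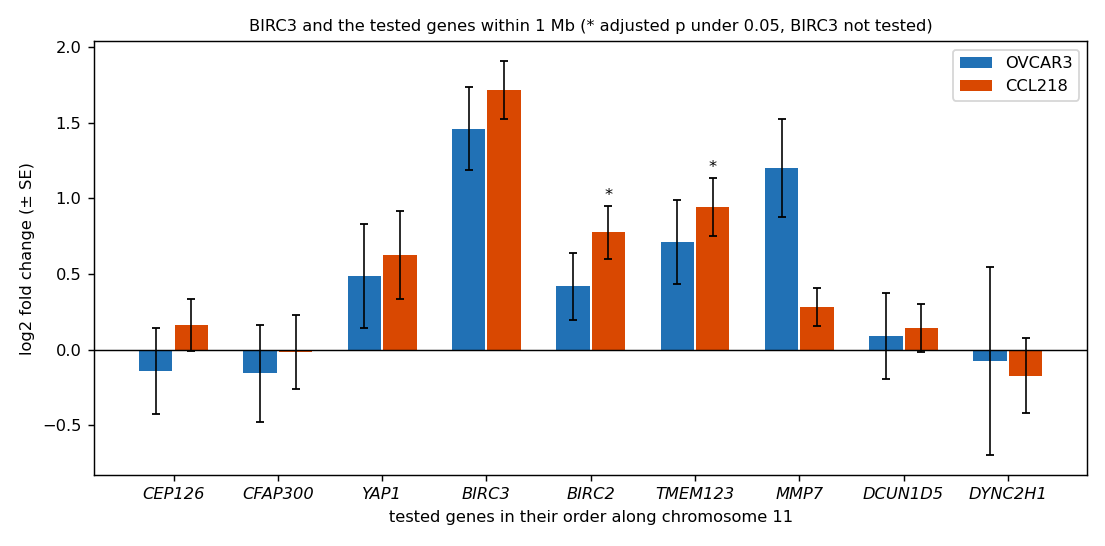
Log2 fold change with SE of BIRC3 and the 8 tested genes within 1000000 bases, in their order along chromosome 11, in OVCAR3 (blue) and CCL218 (orange), with stars for an adjusted p under 0.05. Positive bars run from YAP1 to MMP7 around BIRC3, stars stand only on BIRC2 and TMEM123 in CCL218, and the outer genes lie near 0.

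The other genes of the pathway were read from 7 lists with 129 genes, 93 of which were tested in OVCAR3 and 89 in CCL218. In OVCAR3 1 passed the test as higher (0.647% of all genes did) and 4 as lower (1.21% of all genes did). Of these 5, XAF1 and CSF1 had passed the filter on low counts only through the group where they were high, so they had to differ, and their values are given without a test. In CCL218 5 rose (3.82% of all genes) and 2 fell (2.64% of all genes). With the block 16 of the 89 were called in CCL218, 7 higher and 9 lower, or 18.0%, against 14.2% of all genes. The 9 lower include CXCL1 and CXCL3, which lay near the filter and are not read as calls. For the counts below, an unadjusted p under 0.05 was reached by 1983 of 12204 genes in OVCAR3 and 3084 of 12241 in CCL218. Over all genes DESeq2 called 1105 and 2172, and limma 259 and 839.

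Upstream of the factor, edgeR called 1 gene in 1 line. None of the ligand genes was called in either line by edgeR, DESeq2 or limma (4 tested in OVCAR3, 1 of them with an unadjusted p under 0.05, and 3 tested in CCL218, with 0). TNFSF15 had the smallest p in OVCAR3 (-0.80, SE 0.34, adjusted p 0.294) and TNFSF10, the death ligand TRAIL, in CCL218 (0.28, SE 0.12, adjusted p 0.205). Of the receptors and adaptors, 0 of 25 were called in OVCAR3 by the 3 tools and 3 had an unadjusted p under 0.05, with the lymphotoxin beta receptor gene LTBR first by p (-0.59, SE 0.21, adjusted p 0.224). In CCL218 1 of 24 rose by edgeR and by limma, 7 had an unadjusted p under 0.05, and DESeq2 called 3 (FADD, TNFRSF11A and RIPK2). The gene that rose was FADD, the adaptor that couples death receptors to caspase activation, from 97.4 ± 11.2 to 172 ± 11.1 CPM (0.80, SE 0.13, adjusted p 0.0166). None of the 16 kinase and ubiquitin genes was called in either line by edgeR or limma (1 and 3 had an unadjusted p under 0.05), while DESeq2 called 1 in OVCAR3 (MAP3K8) and 2 in CCL218 (IKBKE and TANK). MAP3K8 had the smallest p in OVCAR3 (-0.85, SE 0.27, adjusted p 0.167) and IKBKE in CCL218 (-0.57, SE 0.14, adjusted p 0.0636). With the block, TNFRSF12A and IKBKE were also called, both lower in CCL218.

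Among the REL, IkappaB and negative feedback genes outside the members, 2 fell in OVCAR3 and 2 rose in CCL218. In OVCAR3 the IkappaB-like gene NFKBIZ fell from 32.6 ± 4.45 to 15.7 ± 2.55 CPM (-1.08, SE 0.20, adjusted p 0.0484), the 1 of 7 other REL and IkappaB genes called. ZC3H12A, which encodes a ribonuclease that degrades cytokine mRNAs, fell from 44.7 ± 5.86 to 22.3 ± 1.48 CPM (-1.03, SE 0.19, adjusted p 0.0439), the 1 of 13 other negative feedback genes called. In CCL218 2 of 13 negative feedback genes rose. PDLIM2, which encodes a ligase that terminates nuclear RELA, went from 10.5 ± 0.26 to 22.2 ± 2.49 CPM (1.05, SE 0.14, adjusted p 0.00733). TNIP1, a partner of A20, went from 220 ± 15.1 to 344 ± 17.4 CPM (0.62, SE 0.12, adjusted p 0.0283). The difference between lines was called for none of these 4 genes. None of the 7 REL and IkappaB genes was called in CCL218 by edgeR or limma, and DESeq2 called the 1 with an unadjusted p under 0.05 (NFKBIB, -0.78, SE 0.26, adjusted p 0.124 by edgeR). With the block NFKBIB was called lower and RNF11 was called higher in CCL218.

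The listed target genes of NF-kappaB, CCND1 and MYC among them, had negative medians in both lines. In OVCAR3, of 22 tested targets 0 rose and 2 fell by edgeR. An unadjusted p under 0.05 was reached by 5, and DESeq2 called 3 and limma 2 (1983, 1105 and 259 over all 12204 genes). CSF1 is in the edgeR and DESeq2 counts but is not read as a call. The median log2 fold change was -0.40 beside 0.016 over all genes. It includes targets near the filter, such as CSF1 and CXCL3 (lower) and PLAU (higher). How far the filter moved the median was not tested. Of the 2 lower genes 1 was CSF1, the macrophage growth factor, which stood at 1.81 ± 0.51 CPM in control and 0.39 ± 0.05 CPM in evolved pools and passed the filter only through the control pools. The other was CCND1, the G1 cyclin, which fell from 177 ± 28.0 to 84.6 ± 9.22 CPM (-1.08, SE 0.19, adjusted p 0.0380). In CCL218 2 of 20 rose and 2 fell by edgeR. An unadjusted p under 0.05 was reached by 13, and DESeq2 called 10 and limma 5 (3084, 2172 and 839 over all 12241 genes). The median was -0.42 beside -0.017 over all genes. It too includes targets near the filter, such as CXCL1 (lower) and IL15 (higher). IL15, a cytokine of lymphocytes, rose from 1.73 ± 0.25 to 4.83 ± 0.82 CPM (1.45, SE 0.22, adjusted p 0.0133). ICAM1, an adhesion molecule, rose from 9.05 ± 0.57 to 15.7 ± 0.84 CPM (0.77, SE 0.13, adjusted p 0.0173). CXCL8, the neutrophil chemokine, fell from 3.90 ± 0.50 to 2.05 ± 0.18 CPM (-0.95, SE 0.19, adjusted p 0.0323). PTGS2, the inducible cyclooxygenase, also fell (-1.23, SE 0.25, adjusted p 0.0355) and is named after its value was seen. With the block 9 of the 20 were called in CCL218, 3 higher and 6 lower, where the block called 14.2% of all genes.

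In the list of other IAP genes and IAP antagonists, edgeR passed 1 of 6 in OVCAR3 (XAF1), DESeq2 passed 2 (XAF1 and BIRC5) and limma 2. XAF1 had to differ because of the filter and is not read as a call. In CCL218 0 of 6 were called by edgeR or limma (1 had an unadjusted p under 0.05 and was called by DESeq2, HTRA2). XAF1, which encodes a protein that binds XIAP and opposes it, stood at 0.45 ± 0.04 CPM in control and 2.40 ± 0.42 CPM in evolved OVCAR3 pools and passed the filter only through the evolved pools. In CCL218 it went from 2.88 ± 1.38 to 4.68 ± 1.29 CPM (0.67, SE 0.39, adjusted p 0.322). BIRC5, which encodes the mitotic IAP protein survivin and is named after its values were seen, went from 70.6 ± 14.3 to 146 ± 17 CPM in OVCAR3 (1.02, SE 0.20, adjusted p 0.0517 by edgeR) and was called there by DESeq2. HTRA2, a mitochondrial IAP antagonist, had the smallest p in CCL218 (-0.43, SE 0.15, adjusted p 0.123). Between the control lines 4 of 92 list genes were called, and they are named after their values were seen. TNFRSF11A was higher in CCL218 (1.59, SE 0.19, adjusted p 0.00898), and MAP3K8 (-1.0, SE 0.17, adjusted p 0.0319) and TRIB3 (-1.12, SE 0.15, adjusted p 0.0129) were lower. XAF1 was the other, and it passed the filter only through the CCL218 pools. The main test called 2.05% of all genes in this comparison. With the block 44 of the 92 were called, where the block called 36% of all genes.

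**Figure D4:**
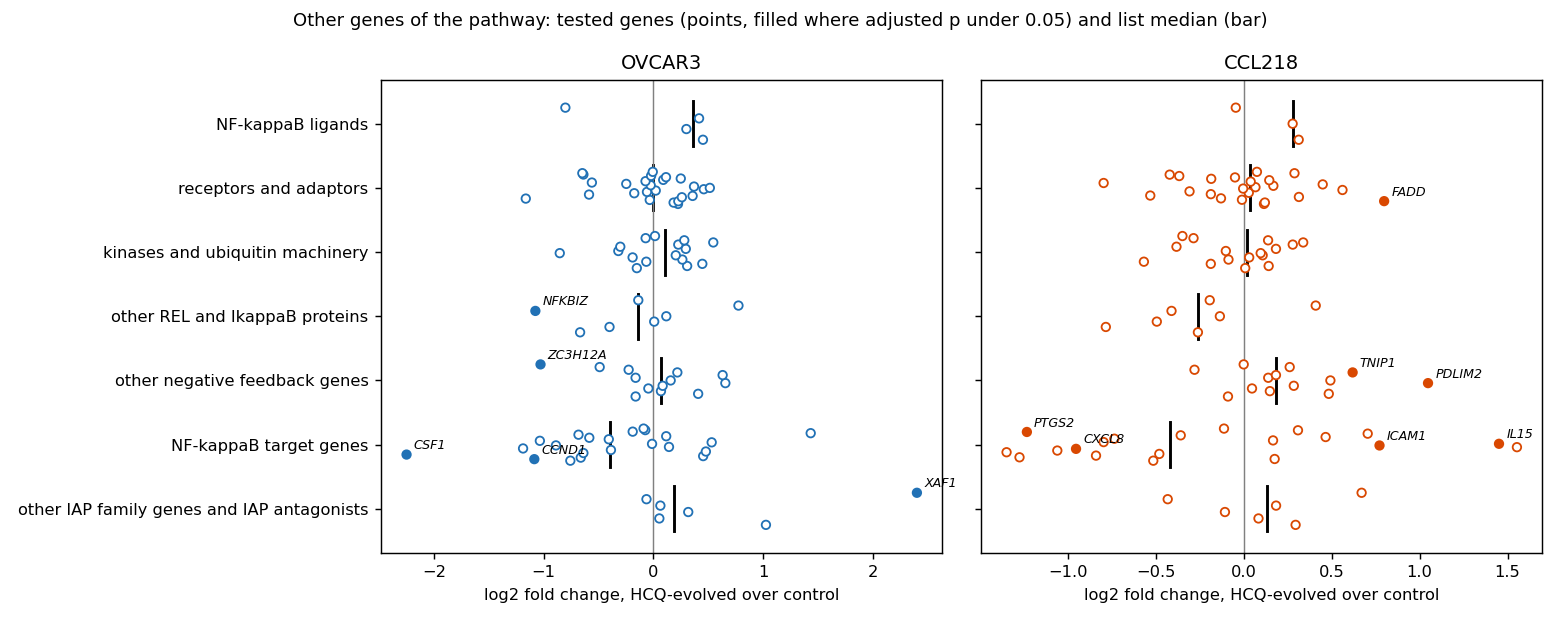
Log2 fold change of HCQ-evolved over control for each tested gene of the 7 pathway lists in OVCAR3 (left) and CCL218 (right), with filled, named points for an adjusted p under 0.05 and a black bar for the median of each list. Target genes have the lowest medians, -0.40 and -0.42, which include targets near the filter such as CSF1, and called genes lie on both sides of 0. XAF1 and CSF1 in OVCAR3 passed the filter only through the group where they were high.

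The calls in these lists depended on single libraries. In OVCAR3 NFKBIZ, ZC3H12A and CCND1 were each called in 1 of 6 fits that left out a library, the one without HCQ-evolved R, and lost in the other 5, with adjusted p up to 0.191. CSF1 and XAF1, which passed the filter through a single group of 3, could not be tested without any library of that group, and are not read as calls here. In CCL218 PDLIM2 was lost only without control R (adjusted p 0.0517). Leaving out control R also ended the calls of FADD, TNIP1, CXCL8, IL15, ICAM1 and PTGS2. These 6 were lost without HCQ-evolved L and without HCQ-evolved M as well, 5 of them (all but IL15) without HCQ-evolved R, and TNIP1, CXCL8 and PTGS2 without control M, with adjusted p up to 0.198. All 7 held without control L. Every one of these genes kept its direction in all fits run.

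The genes whose levels followed BIRC3 most closely were sought among 11944 genes tested in both lines, by Pearson r on log2 CPM over the 12 libraries. The first 5 were EGLN1 (r 0.974), an oxygen-sensing prolyl hydroxylase, SLC2A1 (r 0.971), the glucose transporter GLUT1, RIMKLA (r 0.966), a synthase of N-acetylaspartylglutamate, QSOX1 (r 0.962), a thiol oxidase of secreted proteins, and BNIP3L (r 0.962), a mitophagy receptor. The points share 2 lines and 2 treatments, and BIRC3 fell into separate low and high sets, so r mainly ranks genes by the same step between control and evolved pools. Their log2 fold changes were 0.71 to 1.13 in OVCAR3 and 1.08 to 1.36 in CCL218, all smaller than those of BIRC3. EGLN1 went from 72.5 ± 12.1 to 145 ± 22.4 CPM in OVCAR3 and from 68.4 ± 11.5 to 154 ± 7.93 CPM in CCL218. SLC2A1 went from 692 ± 123 to 1360 ± 168 CPM and from 595 ± 102 to 1539 ± 98 CPM.

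Among the members, XIAP (r 0.82), BIRC2 (r 0.80) and TNFAIP3 (r 0.79) had values nearest to BIRC3, and XIAP was number 395 of the 11944. TNFAIP2 had r 0.50, TRAF1 0.18, NFKB1 0.08, NFKBIA -0.10, RELB -0.18 and NFKB2 -0.25. Without the 2 libraries farthest from the median of BIRC3 these values were unstable, with TRAF1 at 0.48, NFKBIA and NFKB2 both at 0.08 and NFKB1 at -0.14. Of the 4 other members with a match to the kappaB consensus, TNFAIP3 was number 593 by r, and NFKB1, NFKBIA and NFKB2 were numbers 5739, 6979 and 8019. XIAP and BIRC2 (number 514), without a match, came before all 4. BIRC3 was picked for the step that r follows, so this order cannot tell what the consensus does.

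**Figure D5:**
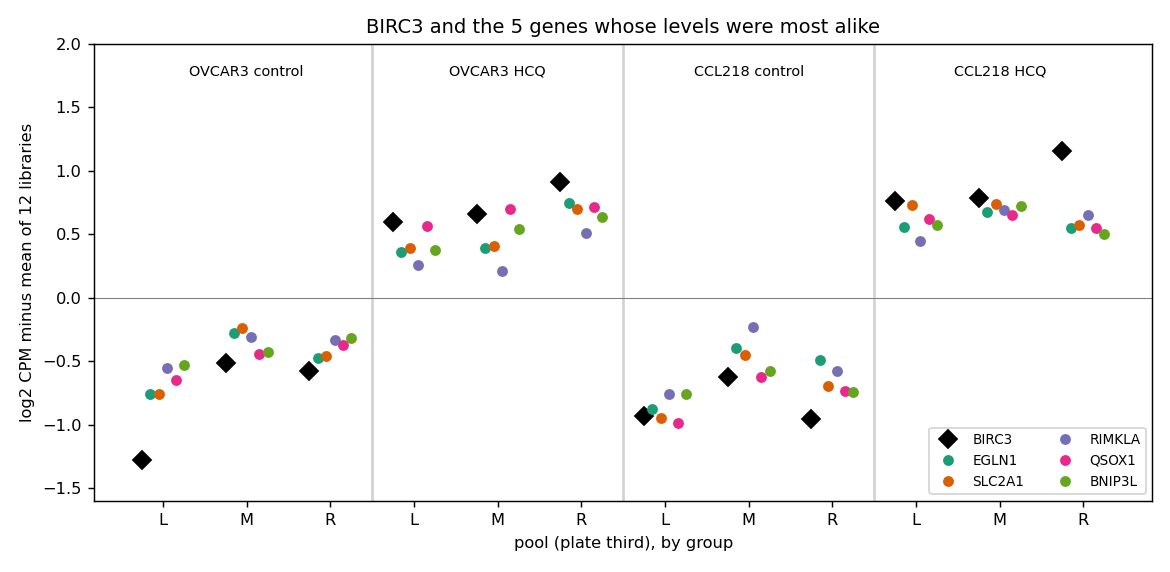
Log2 CPM minus the mean of the 12 libraries for BIRC3 (black diamonds) and the 5 genes with the highest Pearson r with it, by library. All 6 genes lie below 0 in every control pool and above 0 in every HCQ-evolved pool of both lines, and BIRC3 spans the widest range.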

How the data were processed

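Counts per gene were deposited by the authors as raw whole numbers. Per the labels and methods, STAR aligned the reads to hg38, RmDup took out duplicates and featureCounts gave the table. Versions, annotation and strand setting are not given in the sources used here. Samples were grouped by line and treatment from their titles.

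Genes that reached 1 CPM (counts scaled to 1e+06 per library) in 3 or more of the libraries fitted were tested with edgeR 4.0.16 (R 4.3.3, TMM scaling, robust legacy quasi-likelihood test), each line alone, with Benjamini-Hochberg adjustment over all genes tested and a threshold of 0.05. The difference between lines was tested in a fit of all 12 libraries. SEs were derived from the log2 fold change and its F statistic, and 95% intervals are 1.96 SE to each side. This multiplier takes no account of the small number of libraries, so the intervals are approximate and narrower than the test itself would give. CPM shown are TMM-scaled over 12 libraries. Positions and exon lengths came from GENCODE on hg38 and matched 91.1% of the symbols. Fits were tested on simulated data.

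The members and gene lists were chosen with earlier results of these data known. Named were all members, up to 3 called genes of each list and line with the smallest p (otherwise 1 gene by p), the 5 genes most alike to BIRC3, and called neighbours. Alternatives were DESeq2 1.42.0 (test and size factors), limma 3.58.1 (voom), a filter at 5 CPM or none, one fit of all libraries, plate position as a block, removal of length and GC trends (splines with 5 df) and leaving out each library.

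Plate position was checked as a pairing by correlating deviations of same-position pools from their group means. The correlations for L, M and R were 0.542, 0.27 and 0.227 in CCL218 and 0.865, 0.831 and 0.254 between control groups, so positions were taken to pair there. This choice was made on the same data. In the control groups of OVCAR3 and CCL218, same-position pools also shared their trend with length (rho -0.37 and -0.51 for L, 0.54 and 0.47 for M). Whether plate position or a technical step makes the pools alike was not tested.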

Additional observations from a re-analysis of the deposited data

Results flagged for a closer look

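By the main test the change of CCND1, a cyclin listed among the NF-kappaB targets, differed between the lines. It fell in OVCAR3 (log2 fold change -1.08, SE 0.19, adjusted p 0.0380 by edgeR) and was at 225 ± 25 CPM in control and 258 ± 18.3 CPM in HCQ-evolved CCL218 pools (0.18, SE 0.13, adjusted p 0.411). The difference, CCL218 minus OVCAR3, was 1.28 (SE 0.21, adjusted p 0.0178 by edgeR). It was the 1 gene of the 93 tested list genes (1.08%) called in this comparison, where 0.872% of all genes were, so the share of the lists was near that of all genes. The fall in OVCAR3 was lost with the block and was called in 1 of 6 fits that left out a library. No alternative fit of the difference is given for CCND1.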

How the results depend on the processing

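Of 523 values recomputed under an alternative, 422 kept their direction and side of the threshold or moved less than the spread, 64 lost a call (57 of them with a library left out) and 6 gained one. The count of members called in CCL218 (1) was 0 with a filter at 5 CPM, 2 with DESeq2, 2 with plate position as a block, 2 with length and GC trends removed, and 0 to 4 with a library left out. The count between control lines (0) was 1 with the block. The BIRC3 change in CCL218 was 1.5 with trends removed and 1.58 to 1.83 with a library left out. In OVCAR3 it was 1.25 to 1.59 with a library left out, and 1.47 without control M and HCQ-evolved R together, an alternative chosen after seeing the data. The counts of 0 in OVCAR3 and in the difference between lines stayed 0 in all fits run.

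Directions turned for members that were not called. In OVCAR3, with trends removed, NFKBIA was at 0.0045 and NFKB1 at 0.022. NFKB1 was at 0.036 without the filter, and NFKB2 at -0.0051 in one fit of all libraries. With a library left out, NFKBIA ranged from -0.20 to 0.032, NFKB1 from -0.32 to 0.24, NFKB2 from -0.13 to 0.22 and TRAF1 from -0.069 to 0.59. In CCL218 NFKBIA ranged from -0.066 to 0.15, NFKB2 from -0.39 to 0.11 and TRAF1 from -0.023 to 0.61. The cause was not tested.

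In OVCAR3 same-position pools did not deviate together (correlations 0.422, -0.691 and -0.5), and with the block the calls over all genes went from 227 to 81, with NFKBIZ, ZC3H12A and CCND1 lost. In CCL218 and between control lines the block took all-gene calls from 791 to 1744 and from 253 to 4442, and it ended no call of a named gene in CCL218. In OVCAR3 all-gene calls were 1105 with DESeq2, 1080 in one fit of all libraries, 549 without the filter, 142 at 5 CPM and 1064 with trends removed (616 higher and 448 lower, against 79 and 148), 736 without the pair above, and 3 to 557 with a library left out. In CCL218 they were 2172 with DESeq2, 2367 with trends removed and 102 to 3047 with a library left out. For the difference between lines (110) they were 463 with DESeq2, 35 with the block, 457 with trends removed, 69 at 5 CPM and 38 to 212 with a library left out. Between control lines they were 734 with DESeq2, 394 without the filter, 123 at 5 CPM, 405 in one fit of all libraries, 519 with trends removed and 25 to 471 with a library left out. NFKBIZ at 5 CPM and PTGS2 in one fit of all libraries also lost their calls. BIRC3, TNFAIP3 and TRAF1 rest on 58 to 566 counts, which limits their precision.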
